A study of Mus musculus with 43 samples.

Results

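Oligodendrocyte precursor cells (OPCs) of Rag2-/- mice were compared with OPCs of control mice in 11 of the 43 libraries of the study, chosen by cell type and genotype alone. The 6 control libraries came from immunocompetent mice and the 5 Rag2-/- libraries from littermates of 5 of them. The controls were Rag2+/- males in pairs 1 and 3, Rag2+/- females in pairs 2 and 5, and Rag2+/+ males in pairs 4 and 6. The Rag2-/- mice were males in pairs 1, 3 and 4 and females in pairs 2 and 6, so that the mice of pair 6 differed in sex and pair 5 had no Rag2-/- library analysed here. All were young adults of the B6.Cg-Rag2tm1.1Cgn/J line crossed to C57BL/6J and bred from Rag2+/- parents in a clean facility shared by both genotypes. The mutation is in the germ line, so every cell of a Rag2-/- mouse carried it, and the controls were a mixture of Rag2+/- and Rag2+/+ mice. Cells of the cerebral cortex were passed over plates with antibodies against CD45, which took out microglia first, and then over a plate against PDGFRα, from which the OPC RNA was taken. The question was whether OPC transcription depends on lymphocytes.

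OPCs are the dividing glia of the adult brain that give rise to myelinating oligodendrocytes. They respond to platelet-derived growth factor through the receptor encoded by Pdgfra, carry the proteoglycan encoded by Cspg4, and are held in their lineage by the transcription factors Olig1, Olig2 and Sox10. Rag2 and Rag1 together cut DNA at the antigen receptor genes, and without either, T and B cells do not mature. RNA from a panned plate is bulk RNA: fewer cells of a type on the plate and less of its RNA per cell cannot be told apart.

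The OPC libraries held 7523154 to 23118497 gene counts (median 11281482), of which 22.4% to 36.7% were mitochondrial, and 22076 to 25462 genes had at least 1 count. No pair of libraries of a group agreed within sampling noise. The label was checked on 7 OPC genes, which together made up 3842 to 5311 CPM in controls (normalised counts for a common library size) and 3442 to 4595 CPM in Rag2-/- mice. Pdgfra, whose protein was the panning target, stood at 1786 to 2437 CPM in the controls (median 2157) and at 1671 to 2070 CPM in the Rag2-/- mice (1671, 1886, 2043, 1796 and 2070 in pairs 1, 2, 3, 4 and 6). The ranges overlapped, and the Rag2-/- library of pair 1 was the lowest of all. These Pdgfra values are scaled between libraries by TMM, while the sums of gene lists are plain CPM. On plain CPM the Rag2-/- library of pair 4 was the lowest for Pdgfra, at 77.3% of its mean over OPC libraries. Of 26 T and B cell genes, 5 had 0 counts in all 11 libraries, among them Cd3d, Trbc1, Cd2 and Iglc2, and the 26 together summed to 16.5 to 49.6 CPM in controls and 7.81 to 56.1 CPM in Rag2-/- mice. Of 11 natural killer cell genes, 7 had 0 counts throughout (Ncr1, Klrd1, Nkg7, Gzma, Gzmb, Eomes and Klra8), and the list summed to at most 0.209 and 0.285 CPM. Of 12 granulocyte and monocyte genes, 3 had 0 counts throughout (S100a8, Ly6g and Mmp8), and the list summed to at most 1.88 and 1.38 CPM. A count of 0 allows a level of up to 0.13 to 0.399 CPM, depending on the depth of the library.

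Each library also held RNA of genes that mark the other glia. Whether other cells on the plate or the OPCs themselves made this RNA was not tested. For the marker genes of the study's own panel (8 astrocyte, 8 microglia and 7 oligodendrocyte genes, the last taken here for myelinating cells), the CPM in an OPC library was divided by the mean CPM in the purified cells that the gene marks, and the median of these percentages was called the share. The study used these genes on the same libraries, so the panels are not an independent choice. The CPM used here include mitochondrial counts. These made up 6.75% to 11.7% of the purified microglia libraries, 22.5% to 45.1% of the astrocyte and 45.8% to 60.1% of the oligodendrocyte libraries. The 3 shares are therefore not on an equal scale, and their order within a library can depend on this. As computed, the astrocyte share was the largest of the 3 in each of the 11 libraries. In the controls it was 14.1% in pair 1, 19.8% in pair 2, 15.8% in pair 3, 12.3% in pair 4, 9.30% in pair 5 and 17.5% in pair 6. In the Rag2-/- mice it was 34.1% in pair 1, 22.7% in pair 2, 12.2% in pair 3, 16.5% in pair 4 and 15.5% in pair 6. The 2 highest values were both Rag2-/-, but the other 3 lay within the range of the controls, and in pairs 3 and 6 the Rag2-/- mouse had the lower share. The means were 14.8% ± 3.76 (SD, n = 6) and 20.2% ± 8.66 (SD, n = 5), a difference of 5.39 percentage points that an exact two-sided permutation test did not tell from 0 (p = 0.225, 0.675 after Benjamini-Hochberg adjustment over 3 shares, with 0.00433 the smallest p this design allows).

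**Figure D1:**
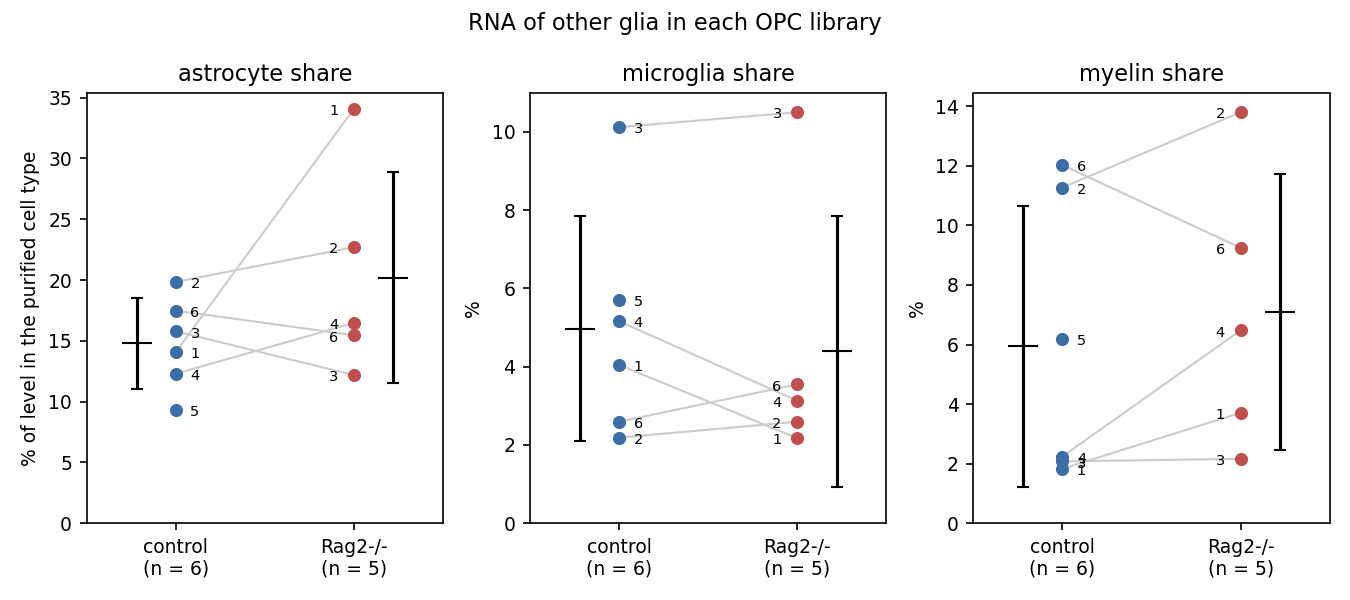
The plot of shares by library gives, for each of the 11 OPC libraries, the median level of the astrocyte, microglia and myelin panels as a percentage of their level in the purified cell type; numbers beside the points are littermate pairs, grey lines join littermates, and black bars are group means with SD. The astrocyte share of the Rag2-/- library of pair 1 (34.1%) stands above the other 10 libraries, and both libraries of pair 3 stand above the rest in the microglia share (10.1% and 10.5%).

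The microglia share was small except in pair 3. In the controls it was 4.05%, 2.18%, 10.1%, 5.16%, 5.70% and 2.59% in pairs 1 to 6. In the Rag2-/- mice it was 2.17%, 2.59%, 10.5%, 3.13% and 3.55% in pairs 1, 2, 3, 4 and 6. Both mice of pair 3, one of each genotype, were about as high as each other, and the other 9 libraries lay at or under 5.70%. The means of 4.97% ± 2.88 (SD, n = 6) and 4.39% ± 3.46 (SD, n = 5) did not differ beyond that spread (exact permutation p = 0.697). The myelin share was 1.83%, 11.3%, 2.08%, 2.24%, 6.20% and 12.0% in control pairs 1 to 6, and 3.71%, 13.8%, 2.16%, 6.48% and 9.25% in Rag2-/- pairs 1, 2, 3, 4 and 6. Pairs 2 and 6 were the highest in both genotypes, and pairs 1 and 3 the lowest. The means of 5.94% ± 4.71 (SD, n = 6) and 7.08% ± 4.63 (SD, n = 5) again did not differ beyond the spread (exact permutation p = 0.697). The permutation tests of all 3 shares took the libraries as unpaired. Differences between littermate pairs are therefore part of the spread, and a genotype difference smaller than these could be missed. The direction of the small microglia difference turned without the control of pair 3 (0.451 percentage points higher in Rag2-/-), and that of the myelin difference turned without the Rag2-/- mouse of pair 2 (0.542 lower) and in males alone (0.428 lower).

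Single genes of a panel gave different percentages. Among astrocyte genes, Glud1 (glutamate dehydrogenase) ran from 25.3% to 60.7% of its astrocyte level over the 11 libraries, and Gfap, the intermediate filament of reactive astrocytes, from 2.13% to 20.5%. Among microglia genes, Ptprc, which encodes the CD45 antigen used for depletion, ran from 0.930% to 8.16%, and Cd68, a lysosomal protein of phagocytes, from 1.69% to 12.8%. Among oligodendrocyte genes, Myrf, a transcription factor of myelination that is also made in differentiating precursors, stood at 21.7% to 42.3%, while Mbp, a major protein of compact myelin, stood at 1.70% to 5.96%. The 7 OPC genes were set against their own mean over OPC libraries in the same way, and their median ran from 77.3% in the Rag2-/- mouse of pair 4 to 122% in the control of pair 5.

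The shares were not independent of each other over the 11 libraries. The astrocyte and microglia shares ran in opposite directions (Pearson's r = -0.51, Spearman's rho = -0.86, permutation p = 0.0336 and 0.0010, adjusted 0.0504 and 0.0030 over 3 relations), and r was -0.48 without the 2 libraries farthest from the median astrocyte share. The microglia and myelin shares gave r = -0.62 and rho = -0.64 (permutation p = 0.0186 and 0.0406, adjusted 0.0504 and 0.0610), and r = -0.53 without the 2 farthest. The astrocyte and myelin shares gave r = 0.23 and rho = 0.54 (permutation p = 0.531 and 0.0941), and r = 0.60 without the 2 farthest. All 3 shares of a library come from the same counts, so that a higher share of 1 type lowers the CPM of the others by arithmetic.

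Markers of other cells of the cortex were present too. The summed level of 20 endothelial genes was 290.3 to 490.8 CPM in controls and 427.5 to 745.6 CPM in Rag2-/- mice, and that of 14 mural genes, which here include Cspg4 of the OPCs themselves, was 828.7 to 1072 CPM and 927.6 to 1137 CPM. The 20 neuronal genes summed to 1536 to 2200 CPM and 1383 to 2593 CPM, and the 28 fibroblast and collagen genes to 233.2 to 380.0 CPM and 260.9 to 421.4 CPM. The ranges of the 2 genotypes overlapped in each of these sums.

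Which genes of the OPC libraries moved with each share was asked by adding the log2 share to the model of sex and genotype, with panel genes left out. The slope of a gene is the change of its log2 level for each doubling of the share, so that a gene whose level is proportional to the share has a slope near 1. The panel genes gave unlike percentages, so a slope above or below 1 does not tell how much of a gene's RNA that cell type made. By the quasi-likelihood F test of edgeR, adjusted over all genes, 61 of 16874 genes (0.362%) followed the astrocyte share, 59 upwards and 2 downwards. They were headed by Daam2, a formin of the Wnt pathway (slope 1.68, SE 0.16), Mfge8, a secreted bridging protein for phagocytosis (1.00, SE 0.11), Fgfr3, a fibroblast growth factor receptor of astrocytes, and Acsbg1, a fatty acid CoA ligase. Daam2 stood at 33.5, 57.1, 38.0, 24.1, 15.6 and 60.1 CPM in control pairs 1 to 6 and at 129, 92.5, 27.7, 44.5 and 40.7 CPM in Rag2-/- pairs 1, 2, 3, 4 and 6, in nearly the order of the astrocyte share. Of 29 further astrocyte genes with a value, 12 were called and all 29 had a positive slope, with a median of 0.90 against -0.01 over all genes. Among them were Glul, the glutamine synthetase of astrocytes, and Clu, a secreted chaperone.

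Genes of blood vessel walls also went with the astrocyte share. Myh11 and Acta2, the myosin heavy chain and actin of smooth muscle, had slopes of 2.37 (SE 0.34) and 2.12 (SE 0.34), and Rgs5, a regulator of G protein signalling in pericytes, had a slope of 1.09 (SE 0.21). Of the mural list, 2 of 13 genes were called (Rgs5 and Acta2) and 12 had a positive slope, with a median of 0.83. Of the endothelial list, 1 of 20 was called (Slc2a1, the glucose transporter of the blood-brain barrier) and 18 were positive, with a median of 0.86. The neuronal list had no call and a median of 0.08. None of the 7 OPC panel genes passed the test, and all 7 had a negative slope (-0.57 to -0.02).

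The count rested on few libraries. Without the Rag2-/- mouse of pair 1, which had the highest astrocyte share, 7 genes followed the share, all upwards, and without the Rag2-/- mouse of pair 3 there were 8. There were 18 without the control of pair 2, 28 without the Rag2-/- mouse of pair 2, 31 without the control of pair 6 and 27 without the Rag2-/- mouse of pair 6. Without the control of pair 3 there were 169, of which 77 went downwards.

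**Figure D2:**
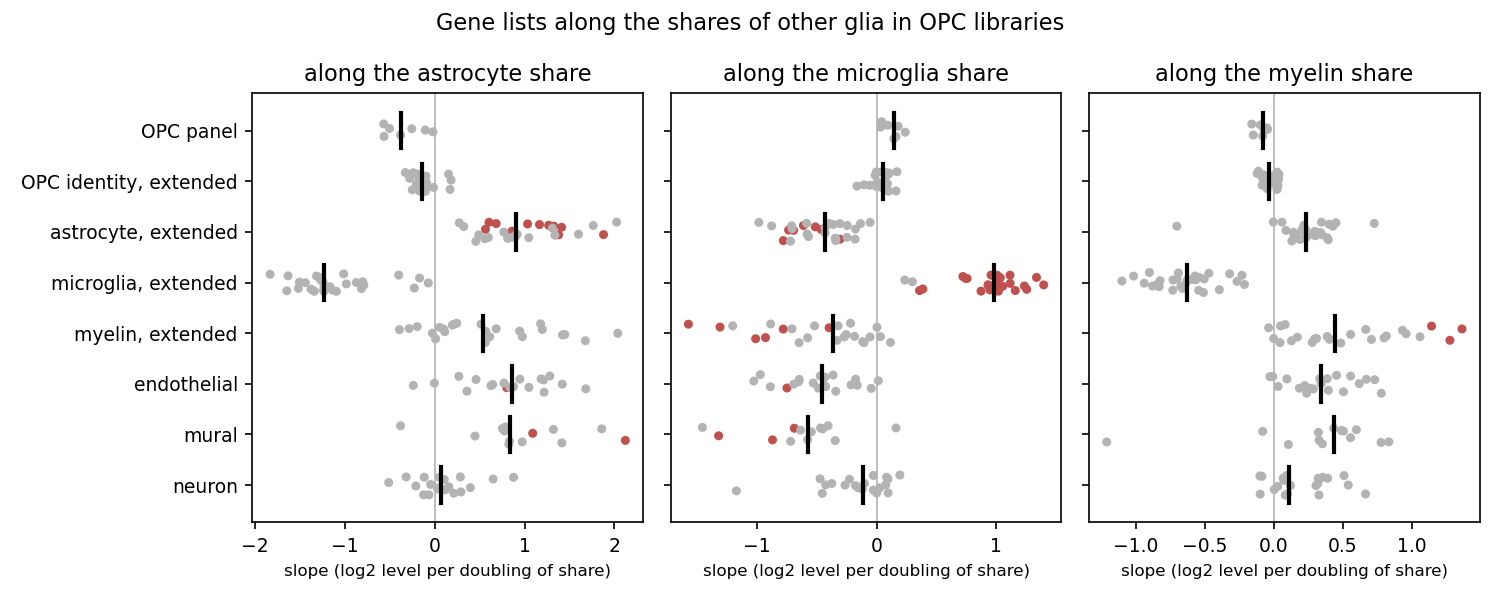
The plot of slopes along each share shows, for 8 gene lists, the change in log2 level per doubling of the astrocyte, microglia and myelin share; each point is a gene (red where the adjusted p of edgeR's quasi-likelihood test is under 0.05) and black lines are list medians. The astrocyte, endothelial and mural lists lie to the right along the astrocyte share (medians 0.90, 0.86 and 0.83), and the microglia list lies near 1 along the microglia share (median 0.98).

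Along the microglia share, 266 of 16874 genes (1.58%) were called, 192 upwards and 74 downwards. The first were C3ar1, a complement receptor, Plek, a cytoskeletal protein of myeloid cells, C1qb, a chain of the first complement component, and Csf1r, the receptor that microglia need to survive. Csf1r stood at 149, 75.5, 437, 205, 191 and 101 CPM in control pairs 1 to 6, and at 81.7, 107, 438, 165 and 177 CPM in Rag2-/- pairs 1, 2, 3, 4 and 6. Both libraries of pair 3 were the highest, and the genotypes overlapped throughout. Of 29 further microglia genes, 27 were called, all upwards, with a median slope of 0.98. Some cytokine genes were also called. Tnf, encoding tumour necrosis factor, had a slope of 1.32 (SE 0.10) and ranged from 9.89 to 81.1 CPM, and Il1b, Ccl4 and Cxcl2, a further cytokine and 2 chemokines, had slopes of 1.18, 1.19 and 1.46. Of 18 MHC class I genes 2 were called (B2m, slope 0.42, and H2-K1, 0.55) and 4 had a negative slope, and of 7 class II genes 1 was called (Cd74, 1.5) and 1 had a negative slope.

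The 74 genes that went down along the microglia share included astrocyte, oligodendrocyte and mural genes. Of the 29 further astrocyte genes 7 were called downwards and all 29 had a negative slope, and of 24 further myelin genes 6 were called downwards. Of the 61 genes along the astrocyte share, 24 were also called along the microglia share (39.3% of the first list and 9.02% of the second), each with the opposite sign. Without both libraries of pair 3, a setting chosen after seeing the data, 37 genes followed the microglia share, 10 upwards and 27 downwards. Without the Rag2-/- mouse of pair 3 alone there were 77, and without the control of pair 6 there were 165.

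Along the myelin share, 11 of 16875 genes (0.0652%) were called, 10 upwards and 1 downwards. The upward genes were Ptgds, the prostaglandin D2 synthase of mature oligodendrocytes, the myelin genes Opalin, Ermn and Mal, and Septin4, Gpr37, Plekhh1, Ttyh2, Il33 and Tmem278, and the downward gene was Casp4, an inflammatory caspase. Mal, a proteolipid of compact myelin, stood at 21.8, 109, 10.8, 4.84, 26.9 and 95.7 CPM in control pairs 1 to 6, and at 48.5, 159, 5.98, 65.0 and 84.8 CPM in Rag2-/- pairs 1, 2, 3, 4 and 6. Pairs 2 and 6 were high in both genotypes. Of 24 further myelin genes, 3 were called and 23 had a positive slope, with a median of 0.45. No OPC panel gene was called along the microglia or the myelin share. Without the control of pair 6 there was 1 gene along the myelin share, and there were 7 without the control of pair 2, the control of pair 3 or the Rag2-/- mouse of pair 2, 4 or 6.

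Against these differences between libraries, the genotype comparison called 1 gene. Iftap, which encodes a protein associated with intraflagellar transport in cilia, fell in the Rag2-/- mice, and it was 1 of 16882 genes tested (0.00592%) in edgeR's quasi-likelihood test with terms for sex and genotype (adjusted p = 2.84e-05). Iftap (ENSMUSG00000027165) lies on the minus strand of chromosome 2 at 101391125 to 101484020 in GRCm39, and both Rag2 (101455063 to 101462874, plus strand) and Rag1 (101468603 to 101479877, minus strand) lie within that span. Its counts were 134, 51, 72, 120, 102 and 208 in control pairs 1 to 6, and 0 in Rag2-/- pairs 1 to 4 and 2 in pair 6. All Rag2-/- libraries were far under all controls, so that Iftap was at least 46.8-fold lower when each Rag2-/- library is set to a floor of 3 counts. Of its exonic length 6.2% is shared with other genes, and without a stated strand setting reads from the shared part cannot be assigned with certainty. Floors cover counting error only, and amplified reads are not independent molecules. The intervals and SE of log2 fold changes come from edgeR's fit, which also takes in the spread between mice.

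Among the controls, Iftap was higher in the Rag2+/+ mice. The 2 Rag2+/+ mice had 12.9 and 17.9 CPM (mean 15.4), the 4 Rag2+/- mice 10.4, 7.07, 6.71 and 9.38 CPM (mean 8.40). The 2 sets did not overlap (exact permutation p = 0.0667, the smallest that 2 against 4 mice allow, so that this comparison cannot pass a threshold of 0.05). Both Rag2+/+ mice were male, and of the Rag2+/- mice the males had 10.4 and 6.71 CPM. Rag2 itself had 4 counts in the control of pair 6 and 0 in the other 10 libraries, too few to check the genotype by its own RNA. Rag1 had 3 counts in the Rag2-/- mouse of pair 2, 7 in the control of pair 5 and 0 elsewhere. Among 33 genes with a value within 5 Mb of Rag2, Iftap was the only one called, and Traf6, the nearest other gene with a value, had a log2 fold change of -0.10. At an unadjusted p under 0.05, 2 of the 33 were higher, beside 2.3% of all genes. The smaller p was that of Slc1a2, a glutamate transporter 1.03 Mb from Rag2 (0.53, SE 0.17). Slc1a2 is also 1 of the 8 astrocyte panel genes that define the astrocyte share. Whether its difference goes with the locus was not tested.

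**Figure D3:**
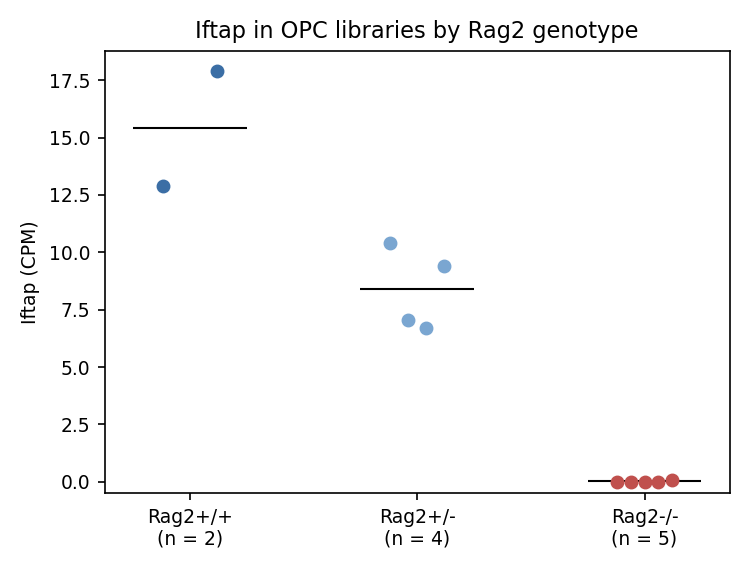
The plot of Iftap by Rag2 genotype gives its normalised count (CPM) in each OPC library, with lines at group means. The Rag2+/+ libraries (12.9 and 17.9) lie above the Rag2+/- libraries (6.71 to 10.4), and the 5 Rag2-/- libraries lie at or near 0.

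Apart from Iftap no gene passed the test in the main comparison. At an unadjusted p under 0.05 there were 388 genes higher in Rag2-/- OPCs (2.3%), 291 lower (1.72%) and 679 in all (4.02%). In 37 genes (0.219%) every Rag2-/- library lay above every control, and in 29 (0.172%) every one lay below. Changes beyond 2-fold were bounded for most well expressed genes. The 95% interval of the fold change lay within 2-fold either way for 97.2% of the genes at 20 to 100 CPM and 98.8% of those above 100 CPM. It did so for 67.8% at 5 to 20 CPM and 6.39% at 1 to 5 CPM. These intervals are not adjusted for the number of genes, and changes smaller than 2-fold can be present without passing the adjusted test.

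DESeq2 on all genes, the study's own kind of model, called 5 of 33547 genes (0.0149%): Iftap and 4 genes that were higher in Rag2-/- mice. Fkbp10, a chaperone of collagen folding, stood at 0.622, 1.52, 1.68, 0.215, 1.66 and 1.89 CPM in control pairs 1 to 6 and at 10.1, 20.6, 5.27, 3.19 and 9.03 CPM in Rag2-/- pairs 1, 2, 3, 4 and 6. The groups did not overlap, and the log2 fold change was 2.75 (SE 0.50), with an adjusted p of 0.449 in edgeR and 9.9e-05 in DESeq2. Of its exonic length 25.5% is shared with other genes, so that its counts are uncertain in the same way. Ly6a, the stem cell antigen Sca-1 of endothelial and other cells, stood at 1.09, 3.74, 2.14, 2.90, 3.40 and 4.56 CPM in controls and at 16, 13.9, 4.35, 7.70 and 15 CPM in Rag2-/- mice. The Rag2-/- mouse of pair 3 was just under the control of pair 6, and the others were above all controls (log2 fold change 1.89, SE 0.39). Cyb561d2, a membrane cytochrome, stood at 2.02 to 4.99 CPM in controls and at 5.79 to 8.47 CPM in Rag2-/- mice, with no overlap (1.32, SE 0.30). S1pr4, a sphingosine-1-phosphate receptor of lymphocytes and other blood cells, had 349 counts in the Rag2-/- mouse of pair 6, at most 6 in every other library, and did not pass the edgeR filter.

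The levels of these genes in the other purified cells were of different kinds. On a scale common to all 43 libraries, Fkbp10 stood at 25.4 ± 2.49 CPM in control astrocytes (SD, n = 6) against 0.994 ± 0.536 CPM in control OPCs (SD, n = 6), and at 0.384 ± 0.535 CPM in control microglia (SD, n = 6). Frem2, an extracellular matrix protein with a log2 fold change of 2.64 (SE 0.70), stood at 37.7 ± 5.84 CPM in control astrocytes and at 0.758 ± 0.514 CPM in control OPCs. Neither differed by genotype within astrocytes beyond its error (log2 fold changes of -0.15, SE 0.17, and 0.06, SE 0.15). Ly6a and Cyb561d2 were low in all of these cells, with control means of 0.960 and 3.93 CPM in astrocytes, 2.31 and 3.39 CPM in microglia, and 2.32 and 2.28 CPM in OPCs. With the astrocyte share in the model the log2 fold changes in OPCs were 2.30 for Fkbp10, 1.77 for Frem2, 1.45 for Ly6a and 1.32 for Cyb561d2, and Iftap stayed at -8.02.

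The other genes with the smallest p in the upward direction were of both kinds. Acot11, an acyl-CoA thioesterase (5.15 to 8.45 CPM in controls, 9.48 to 25.5 in Rag2-/- mice), Fam20a, a regulator of secretory kinases (6.90 to 9.68 and 8.26 to 34.6) and Pbxip1, a binding partner of the PBX transcription factors (23.4 to 47.2 and 40.9 to 87.8), had log2 fold changes of 1.17 (SE 0.28), 1.19 (SE 0.30) and 0.88 (SE 0.23). All 3 had control means in purified astrocytes of 69.2, 81.1 and 211 CPM, far above the OPC means of 5.52, 6.40 and 26.0 CPM on the common scale, and the astrocyte share in the model took them to 0.76, 0.72 and 0.66. Kcnj6, an inwardly rectifying potassium channel subunit, was not higher in astrocytes. It stood at 3.27, 6.10, 4.19, 1.83, 1.75 and 5.08 CPM in controls and at 9.18, 7.25, 8.91, 8.36 and 12.7 CPM in Rag2-/- mice with no overlap (1.32, SE 0.36), and its control means were 2.09 CPM in astrocytes, 2.90 CPM in OPCs and 22.1 ± 29.4 CPM in oligodendrocytes (SD, n = 4). Nherf2, a scaffold protein of membrane transporters, was at 9.14 to 19.2 CPM and 21.9 to 28.4 CPM with no overlap (0.85, SE 0.21), and Bud31, a splicing factor, at 10.4 to 14.9 CPM and 16.9 to 25.6 CPM (0.72, SE 0.20), although 44.6% of the exonic length of Bud31 is shared with other genes.

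The genes lower in Rag2-/- OPCs with the smallest p after Iftap ran from low to moderate levels. Among the low ones, Slco5a1, a member of a family of organic anion transporters, stood at 2.91 to 12.8 CPM in controls and at 1.39 to 5.72 CPM in Rag2-/- mice (log2 fold change -1.51, SE 0.38), and Polr1e, a subunit of RNA polymerase I, had -1.42 (SE 0.38) and Yjefn3 -2.42 (SE 0.67), all with overlap. Pacs1, a sorting adaptor of the trans-Golgi network, stood at 69.9, 65.0, 68.5, 66.8, 82.8 and 66.8 CPM in control pairs 1 to 6 and at 47.2, 45.9, 54.4, 51.9 and 46.1 CPM in Rag2-/- pairs 1, 2, 3, 4 and 6. Every Rag2-/- library was under every control, with a log2 fold change of -0.51 (SE 0.12, adjusted p = 1.00). Cdkn1b, the cell cycle inhibitor p27, stood at 49.2, 61.5, 41.8, 55.8, 59.1 and 49.4 CPM in controls and at 35, 35, 41.2, 37.6 and 37.6 CPM in Rag2-/- mice. These groups touched at 41.2 and 41.8 CPM without overlap (-0.50, SE 0.13). Insyn2a, a synaptic protein (-0.93, SE 0.23), Zfp12, a zinc finger protein (-0.69, SE 0.18), Crebl2, a bZIP protein (-0.61, SE 0.17), Pomk, a kinase of dystroglycan glycosylation (-0.63, SE 0.18), and Coq3, an enzyme of ubiquinone synthesis (-0.97, SE 0.32), did not overlap either. With the astrocyte share in the model Pacs1, Cdkn1b, Insyn2a and Zfp12 stood at -0.44, -0.46, -0.76 and -0.71. In purified astrocytes their log2 differences by genotype were 0.17 (SE 0.17) for Pacs1 and -0.06 (SE 0.15) for Cdkn1b. In purified oligodendrocytes they were -0.77 (SE 0.47) and -0.43 (SE 0.39), with -1.0 (SE 0.89) for Insyn2a, and in none of these did edgeR's adjusted test pass.

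The genes of OPC identity differed little. Of the 7 OPC panel genes none passed the test or reached an unadjusted p of 0.05, with a median log2 fold change of -0.06 against -0.01 over all genes, and the 95% interval of each lay within 2-fold. Pdgfra had -0.18 (95% interval -0.40 to 0.04) and Olig1 -0.34 (-0.80 to 0.13). Cspg4, Olig2, Sox10, Cdo1, an enzyme of cysteine oxidation, and St8sia3, a sialyltransferase, lay between -0.07 and 0.04. Of 20 further identity genes, 1 was higher and 1 lower at an unadjusted p under 0.05, beside 2.3% and 1.72% of all genes. Gpr37l1, an orphan receptor of glia, stood at 446.9 to 537.9 CPM in controls and at 544.6 to 655.1 CPM in Rag2-/- mice with no overlap (0.21, SE 0.09), and Cacng4, an AMPA receptor auxiliary subunit, at 465.5 to 567.6 CPM and 339.5 to 483.8 CPM (-0.27, SE 0.10). The most abundant, Ptprz1, a receptor phosphatase, had -0.10 (SE 0.10). Of 23 lineage transcription factors and 15 genes of committed precursors none reached an unadjusted p of 0.05, with medians of -0.07 in both lists, and Gpr17, the receptor that marks precursors about to differentiate, had -0.07 (SE 0.14).

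Myelin genes had wide errors. None of 7 panel genes and 1 of 24 further genes reached an unadjusted p of 0.05, beside 4.02% of all genes, with medians of 0.23 and 0.04. Mbp was at 198, 468, 246, 295, 240 and 664 CPM in control pairs 1 to 6 and at 203, 722, 236, 829 and 556 CPM in Rag2-/- pairs 1, 2, 3, 4 and 6, in overlapping ranges (0.48, SE 0.37). The exception was Gal3st1, the sulphotransferase that makes the myelin lipid sulphatide, at 20.4 to 34.5 CPM in controls and 17.2 to 19.2 CPM in Rag2-/- mice without overlap (-0.50, SE 0.17). Enpp2 (autotaxin), the most abundant of the list, had -0.04 (SE 0.11).

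Growth factor and patterning pathways of the lineage were examined by list. Of all genes, 2.3% were higher and 1.72% lower at an unadjusted p under 0.05. Of 29 genes of PDGF, FGF, IGF and EGF signalling, 3 were higher at an unadjusted p under 0.05 and none lower, with a median of 0.00. Fgfrl1, a decoy-like FGF receptor, stood at 23.3 to 39.9 CPM in controls and at 38.7 to 50.9 CPM in Rag2-/- mice (0.49, SE 0.16), and kept 0.50 with the astrocyte share in the model. The other two, Fgfr3 and Egfr, the receptor of epidermal growth factor, were both called along the astrocyte share. By the same measure, of 44 genes of the Notch, Wnt, BMP and Hedgehog pathways 2 were higher, headed by Gli3, a transcription factor of Hedgehog signalling (0.76, SE 0.30, and 0.45 with the astrocyte share), with a median of 0.16 that became 0.02 with the astrocyte share. Of 39 cell cycle genes, 2 were lower, Cdkn1b among them, and none higher, with a median of -0.04. Ccnd1, the cyclin that drives OPCs into the cycle and the most abundant of that list, had -0.14 (SE 0.12).

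In the lists of excitability and contact no gene passed the adjusted test, and the counts are of an unadjusted p under 0.05, which 2.3% of all genes reached upwards and 1.72% downwards. Of 31 glutamate and GABA receptor genes 2 were higher by that measure. Grin2c, an NMDA receptor subunit, stood at 10.7, 17.5, 6.80, 3.66, 7.08 and 17.4 CPM in controls and at 44.9, 31.8, 12.7, 22.5 and 22.6 CPM in Rag2-/- mice (1.35, SE 0.38), and its level in purified control astrocytes was 158 CPM. With the astrocyte share in the model it had 0.81. Of 29 ion channel genes 1 was higher and 2 were lower, with Kcna6, a voltage-gated potassium channel, at 30.1 to 54.0 CPM in controls and 21.1 to 32.1 CPM in Rag2-/- mice (-0.51, SE 0.17). Of 35 matrix and contact genes 1 was higher (Itga6, a laminin receptor subunit, 0.56, SE 0.26) and 1 lower (Dcc, the netrin receptor, -0.40, SE 0.16).

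Pathways through which lymphocytes act on other cells showed no call. Of 27 interferon response genes, 18 of MHC class I presentation and 7 of MHC class II, none reached an unadjusted p of 0.05 in either direction, with medians of -0.04, 0.12 and 0.14. Of all genes 4.02% reached it, 2.3% upwards and 1.72% downwards. The interferon and class II lists were imprecise. Xaf1, an interferon-induced protein, had -1.24 (SE 0.62) at 0.424 to 3.70 CPM. The interval lay within 2-fold for 10 of the 27 interferon genes and for 0 of the 7 of class II. It did so for 13 of the 18 of class I (72.2%), beside 60.6% of all genes. Of 26 receptors for lymphocyte cytokines, Ifnar2, a chain of the type I interferon receptor, was higher (0.45, SE 0.18) and Il17ra, the receptor of interleukin 17, lower (-0.55, SE 0.26) at an unadjusted p under 0.05, with a median of 0.11. Of 14 end joining genes, which act after the RAG enzyme in lymphocytes and in DNA repair elsewhere, none reached it. Neither did any of 32 proteasome genes, whose 95% intervals all lay within 2-fold, nor any of 76 cytosolic ribosomal protein genes (median 0.00).

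Other lists held few differences, beside 2.3% of all genes higher and 1.72% lower at an unadjusted p under 0.05. Of 28 immediate early genes 3 were higher at an unadjusted p under 0.05, headed by Dusp1, a phosphatase of MAP kinases (190 ± 26.2 CPM, SD, n = 6, and 243 ± 37.1 CPM, SD, n = 5, with a log2 fold change of 0.36, SE 0.13). Of 28 heat shock and endoplasmic reticulum stress genes 1 was lower (Dnajb1, a co-chaperone, -0.40, SE 0.17). By the same measure, of 29 cholesterol synthesis genes 2 were higher, headed by Mvk, the mevalonate kinase (0.53, SE 0.22). Of 23 glycolysis genes 3 were higher, of which Aldoc also belongs to the astrocyte panel and Slc2a1 to the endothelial list. The 7 mitochondrially encoded genes that passed the filter had a median of 0.24 and none at an unadjusted p under 0.05. Of the 26 T and B cell genes 2 passed the filter, of 14 ependymal and choroid genes 6, with 1 lower (Kl, a co-receptor of FGF23, -1.5, SE 0.69), and of 10 border macrophage genes 8, with none at an unadjusted p under 0.05.

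**Figure D4:**
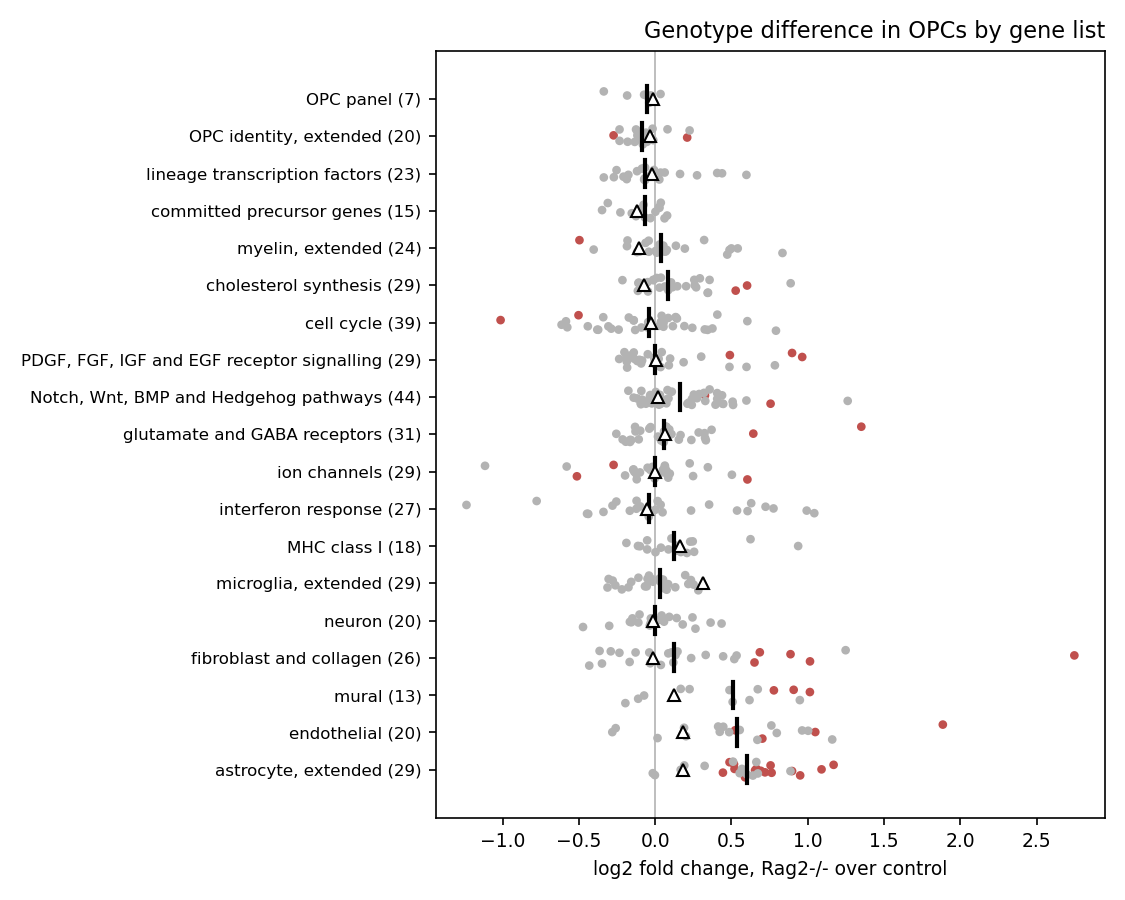
The plot of genotype differences by list gives the log2 fold change (Rag2-/- over control) of each gene of 19 lists, with the number of genes in brackets; red points have an unadjusted p under 0.05, black lines are list medians, and open triangles are the medians with the astrocyte share in the model. The OPC lists lie close to 0, and the astrocyte, endothelial and mural lists lie to the right (medians 0.60, 0.54 and 0.51) and nearer 0 with the share in the model (0.18, 0.18 and 0.12).

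The lists that stood away from 0 were those of other cells. Of the 8 astrocyte panel genes, 5 were higher at an unadjusted p under 0.05 and none lower, beside 2.3% of all genes higher, with a median log2 fold change of 0.51. These 5 were Aqp4, the water channel of astrocyte endfeet (0.73, SE 0.24), the glutamate transporters Slc1a2 (0.53, SE 0.17) and Slc1a3 (0.48, SE 0.19), Gja1, the gap junction protein connexin 43 (0.97, SE 0.35) and Aldoc, a glycolytic aldolase (0.54, SE 0.22). Gja1 stood at 67.3, 86.5, 50.9, 38.7, 33.2 and 71.5 CPM in control pairs 1 to 6 and at 207, 140, 34.5, 111 and 75.1 CPM in Rag2-/- pairs 1, 2, 3, 4 and 6, so that pairs 1, 2 and 4 were above all controls and pair 3 was near the lowest. Of the 29 further astrocyte genes 16 were higher and none lower, with a median of 0.60, headed by Aldh1l1, a folate enzyme used as an astrocyte marker (1.09, SE 0.33). None of these genes passed the adjusted test in the main comparison, and none of the 37 had groups without overlap. Without the filter on low counts, edgeR's adjusted p was 3.6e-07 for Gja1, 0.00014 for Slc1a2, 0.00049 for Aqp4, 0.0024 for Aldoc, 0.027 for Slc1a3 and 0.0052 for Aldh1l1. That was the only 1 of 26 other settings to call any of these genes. With DESeq2 on all genes their adjusted p ran from 0.41 for Aldh1l1 to 0.85 for Gja1.

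Endothelial and mural genes had medians of the same sign, and none passed the adjusted test. Of all genes, 2.3% had an unadjusted p under 0.05 upwards and 1.72% downwards. Of 20 endothelial genes 4, Ly6a among them, had an unadjusted p under 0.05 in the upward direction and none in the downward, with a median of 0.54. Of 13 mural genes 3 had it upwards and none downwards, with a median of 0.51. Rgs5 stood at 53.4, 125, 39.8, 39.6, 56.1 and 75.8 CPM in controls and at 193, 145, 56.6, 121 and 80.8 CPM in Rag2-/- mice (0.91, SE 0.31), overlapping in pairs 3, 4 and 6. Of 26 fibroblast and collagen genes 5 had it upwards, Fkbp10 among them, with a median of 0.13. The microglia lists had no gene at an unadjusted p under 0.05 and medians of -0.06 over 8 and 0.03 over 29 genes, and the 20 neuronal genes had none and a median of 0.00.

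The counts and medians of the astrocyte, endothelial and mural lists were smaller without the Rag2-/- mouse of pair 1 and with the astrocyte share in the model. Without that mouse 3 of the 29 further astrocyte genes were higher, with a median of 0.29, and 1 of the 8 panel genes. With the astrocyte share in the model, 4 of the 29 were higher, with a median of 0.18, and none of the 8. The endothelial median became 0.30 without the mouse and 0.18 with the share, and the mural median 0.35 and 0.12, with 1 gene at an unadjusted p under 0.05 in each list in both settings. The panel genes define the share, so that for them the second value is a description. The share comes from the same libraries, and most genes of the other 3 lists rose with it. Their medians would shrink with the share in the model whatever cells made the RNA, and its source was not tested. Over all genes, 178 of the 388 that were higher at an unadjusted p under 0.05 kept it without the mouse (45.9%) and 161 with the share in the model (41.5%). Of the 291 lower genes, 178 (61.2%) and 125 (43%) kept it. Other settings also lost many: of the higher genes 54.6% kept it without the Rag2-/- mouse of pair 4, 56.7% without the control of pair 5, 55.4% with the pairs as a block and 46.6% in males alone, and of the lower genes 47.8% kept it without the control of pair 5. All genes tested in these settings kept their direction.

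With the littermate pairs as a block, beside sex, no gene of these lists passed the adjusted test either, but the counts at an unadjusted p under 0.05 moved. Of the 7 oligodendrocyte panel genes 3 were then higher, with a median of 0.55, and of the 8 microglia panel genes 3 were lower, with a median of -0.28. Of the endothelial genes 7 and of the mural genes 6 were higher, with medians of 0.73 and 0.70. Of the astrocyte genes 6 of the 8 and 13 of the 29 were higher, with medians of 0.51 and 0.54. Of the 7 OPC panel genes 1 was lower, with a median of -0.15, and of the Notch, Wnt, BMP and Hedgehog genes 6 were higher. Over all genes the counts were 503 higher and 322 lower.

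Genes were also sorted by where else they are expressed, a sorting chosen after values were seen. Members of the lists above were not left out and the libraries are the same, so that this is not separate support. For 10936 genes at 5 CPM or more in OPCs, leaving out Iftap, the control mean in each other purified cell type was divided by the mean of the OPC groups. Among the 58 genes at 8 times or more the OPC level in astrocytes the median log2 fold change in OPCs was 0.77, and 57 were positive. Among the 242 genes at 4 to 8 times it was 0.43, among the 635 at 2 to 4 times it was 0.16, and among the 8029 between 0.5 and 2 times it was -0.02. Sorting by microglia gave -0.01 in the highest bin (343 genes), and sorting by oligodendrocytes gave 0.19 (71 genes). Of 253 genes that were higher at an unadjusted p under 0.05 in this set, 97 (38.3%) were at 4 times the OPC level or more in astrocytes, against 2.74% of all 10936, and of the 189 lower genes 0 were.

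**Figure D5:**
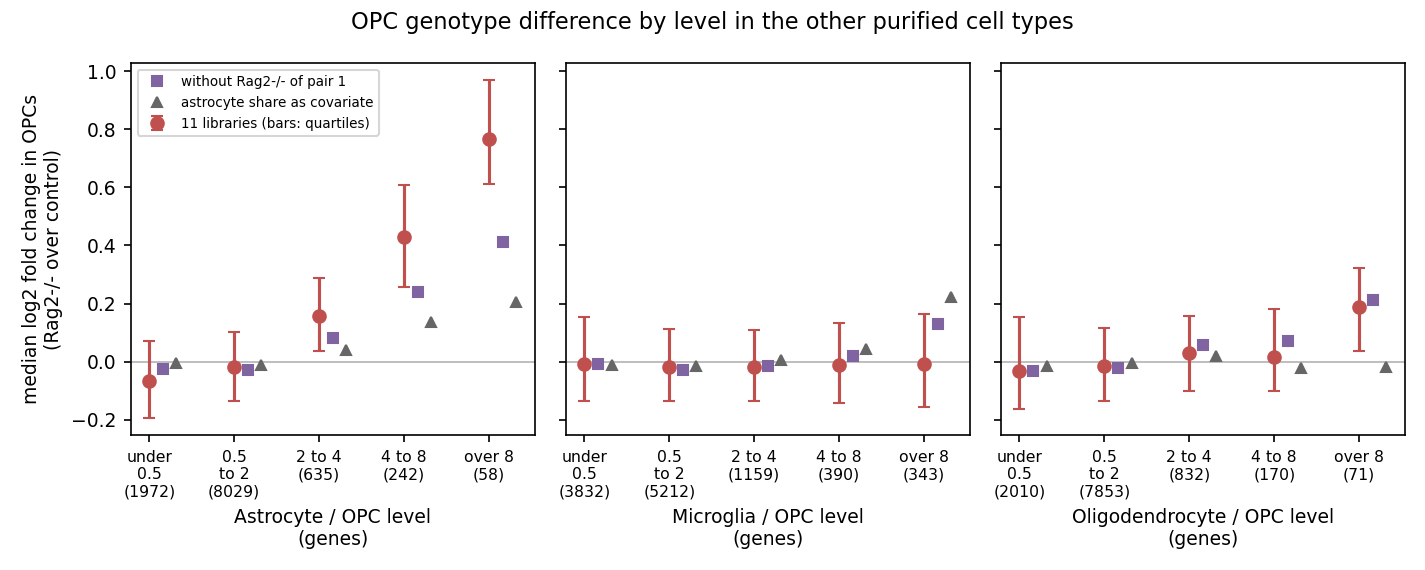
The plot of OPC fold changes by level elsewhere gives, for genes binned by the ratio of their level in control astrocytes, microglia or oligodendrocytes to that in OPCs (number of genes in brackets), the median log2 fold change between Rag2-/- and control OPCs with quartiles, and the median without the Rag2-/- mouse of pair 1 or with the astrocyte share in the model. In the astrocyte panel the median of the highest bin is 0.77, and it lies at 0.41 without that mouse and at 0.21 with the share.

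In the astrocyte sorting, the highest bin was at 0.41 without the Rag2-/- mouse of pair 1 and at 0.21 with the astrocyte share in the model. The part of astrocyte RNA in these differences was not tested, and the difference in the share itself did not pass its test. Of the genes without overlap between the groups in this set, 1 of the 19 higher (5.26%) and 0 of the 21 lower were at 4 times the OPC level or more in astrocytes, beside 2.74% of all.

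The genotype difference in OPCs was last set against the mean of the differences in astrocytes, microglia and oligodendrocytes, over all 43 libraries. The same mice gave several of these cell types, and the fit treated their libraries as independent. Of 21368 genes tested, 1 was called (0.00468%) and 1200 had an unadjusted p under 0.05 (5.62%). The gene was Ly6a, with a log2 difference of 4.51 (SE 0.77, adjusted p = 0.0204 in edgeR). On the common scale its OPC means were 2.32 ± 0.940 CPM in controls (SD, n = 6) and 9.0 ± 3.99 CPM in Rag2-/- mice (SD, n = 5). In microglia they were 2.31 and 2.05 CPM, in astrocytes 0.960 and 0.709 CPM, and in oligodendrocytes 1.68 and 0 CPM. The 4 Rag2-/- oligodendrocyte libraries had 0 counts, and a fitted difference that includes a group at 0 is no bound. The call was lost when any of 7 of the 11 OPC libraries was left out. Frem2 (3.67, SE 0.77) and Trim12c, a member of the TRIM family (4.38, SE 0.94), followed at adjusted p of 0.227 and 0.268.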

How the data were processed

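Per the labels and the study's methods, RNA of panned cells was amplified with the Ovation RNA-seq V2 kit and sequenced in pairs of reads, with 1 lane for each cell type. The authors aligned the reads with STAR 2.7.8a to GRCm39 and deposited HTSeq counts for 55416 gene identifiers, of which 54749 could be given a name. The strand setting is not given in the sources used here. Rows that name no gene held 40.0% to 47.8% of the total of each OPC file and were left out.

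Genes with a count of about 10 in enough libraries (edgeR's filterByExpr, total of at least 15) were tested in edgeR 4.0.16 (R 4.3.3) with TMM scaling, terms for sex and genotype, and Benjamini-Hochberg adjustment at 0.05. CPM of single genes are scaled by TMM over the OPC libraries, or over all 43 libraries where a common scale is named. The shares, the sums over marker lists and the level that a count of 0 allows use plain CPM without TMM. Where genes followed a share, the log2 share was added as a term. Alternatives were DESeq2 1.42.0, limma 3.58.1, other filters and scalings, a replicate block, subsets of mice, the shares as covariates and leaving out each library. The code was tested on simulated data.

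The labels number littermate pairs, so the numbers pair the samples. Deviations of littermates correlated with a mean r of 0.0889 (5 pairs) against -0.0176 for other pairings (25). Each OPC library is a separate mouse. Over all 43 libraries the same mice gave several cell types, which the comparison with the other glia did not use. The genes named were those called, those with the smallest p, the largest differences without overlap, the panels, and in each list the highest and the most different members. Acta2, B2m, Ccl4, Cd74, Clu, Cxcl2, H2-K1, Il1b, Myh11, Slc2a1, Traf6 and Ttyh2 were chosen after their values were seen. Some genes are not reported here. The members and gene lists were chosen with earlier results of these data known.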

Additional observations from a re-analysis of the deposited data

Results flagged for a closer look

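In 46 groups of libraries (20 genes and 3 shares, each in both genotypes), the library farthest from the others was compared with the range of its group, and 4 groups had one beyond the 95% limit. Chance gives about 1 in 20 such groups.

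The microglia share of the Rag2-/- mouse of pair 3 was 10.5%, away from the other Rag2-/- mice, and its control littermate was at 10.1%. S1pr4 stood at 16.2 CPM in the Rag2-/- mouse of pair 6 and at or under 0.550 CPM in the other Rag2-/- mice. Pacs1 stood at 82.8 CPM in the control of pair 5 and at 65.0 to 69.9 CPM in the other controls. Iftap stood at 0.0926 CPM in the Rag2-/- mouse of pair 6, from 2 counts, where the others had 0.

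The genotype difference of Ly6a was larger in OPCs than the mean of the other glia by 4.51 on the log2 scale (SE 0.77, adjusted p = 0.0204 in edgeR), a test of the difference itself. In OPCs alone the log2 fold change was 1.89. The 4 Rag2-/- oligodendrocyte libraries had 0 counts of Ly6a, so that the size of the difference is no bound. The call was lost when any of 7 of the 11 OPC libraries was left out.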

How the results depend on the processing

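Iftap was called in all 26 other settings. The number of genes called between genotypes was 1 in the main test, 90 without a filter on low counts, 5 with DESeq2 on all genes and 3 with DESeq2 on filtered genes. The replicate block with and without sex called 1 gene and changed no other call at the adjusted threshold. Against the other glia it was 131 without a filter, 34 with DESeq2, and 0 to 1 with a library left out. Along the astrocyte share it was 132 without a filter, 155 without the genotype term, and 7 to 169 with a library left out. Along the microglia share it was 77 to 309 with a library left out, and 37 without both libraries of pair 3, a setting chosen after seeing the data. Along the myelin share it was 80 without a filter and 1 to 12 with a library left out. The cause was not tested.

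The microglia share difference was -2.11 to 0.451 percentage points and the myelin share difference -0.542 to 2.37 with a library left out, and the latter -0.428 in males alone. Of the log2 fold changes near 0, these turned sign: Cspg4 with the astrocyte share (0.059), Olig2 with the block and sex (-0.042) and in males (-0.029), Gpr17 (0.024) with Rag2+/- controls alone, and Gfap with Rag2+/- controls (0.20) and in males (0.048). St8sia3 turned with the block without sex (0.021), Rag2+/- controls (0.054) and the astrocyte (0.21), microglia (0.00027) and myelin (0.025) shares. Enpp2 turned with limma (0.0093), the block with sex (0.016) or without (0.021) and Rag2+/- controls (0.0044). With a library left out the ranges were -0.17 to 0.033 for Cspg4, -0.092 to 0.19 for Olig2, -0.093 to 0.047 for Sox10, -0.19 to 0.0073 for Cdo1, -0.23 to 0.10 for St8sia3, -0.15 to 0.018 for Gpr17, -0.0021 to 0.81 for Mbp, -0.090 to 0.0038 for Enpp2, -0.47 to 0.40 for Gfap and -0.015 to 0.34 for Cst3. The 95% interval lay within 2-fold for 6.39% of the genes at 1 to 5 CPM.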
